A study of Mus musculus with 2 samples.

Results

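The genes described are 6 of the 32285 genes in the matrix, chosen by name: the ligand genes Vegfa, Pgf and Edn1 and the receptor genes Flt1, Nrp1 and Nrp2. They were followed in CD45+ immune cells sorted from enzymatically digested, full-thickness mouse skin. DPCP (diphenylcyclopropenone), a contact sensitizer that provokes contact hypersensitivity, had been applied in one condition and the cells taken on day 2. The other condition was control skin, day 0. Cells of both conditions carried different lipid-linked tags and were run as 1 pool with 3' droplet chemistry. Strain, age, sensitization schedule and the number of mice behind each tag are not given in the sources used here.

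Vascular endothelial growth factor A (VEGF-A) is the main secreted signal for blood vessel growth and permeability, and placental growth factor (PlGF, the product of Pgf) is a related ligand. Both bind the receptor FLT1, which holds VEGF-A tightly and carries PlGF signals into monocytes and macrophages, while the neuropilins NRP1 and NRP2 act as co-receptors for VEGF ligands and also for class 3 semaphorins. In skin, VEGF-A is known for feeding the vessels around growing hair follicles and for leaky vessels in contact hypersensitivity. Endothelin-1, the product of Edn1, is a peptide that constricts vessels and acts on pigment cells and on itch nerves.

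After filtering, 7588 DPCP cells (53121083 UMIs, median 4728.5 per cell) and 4967 control cells (51779148 UMIs, median 8797 per cell) were kept, and the conditions shared 0 barcode sequences. Each condition is 1 tagged sample, so no test between conditions could be made. Every interval below is a 95% interval for counting error and does not cover the spread between mice. Ptprc, the gene of CD45, had a UMI in 96.3% of DPCP and 98.8% of control cells. The mitochondrial filter removed 3.53% of DPCP and 20.8% of control barcodes. A barcode's own tag made up a median 83.7% of its tag UMIs in DPCP and 97.6% in control. Neutrophil-like cells were 4901 of the DPCP cells and 107 of the control cells. In other classes 568 DPCP cells and 45 control cells had a sum of S100a8 and S100a9, both abundant in neutrophils, above 20 UMIs, and these are called cells that hold neutrophil RNA. Clusters were named "X-like" from marker lists, and the 6 genes had no part in the clustering. Levels are UMIs summed over the cells of a class and scaled to the class's total (CPM), and ratios are DPCP over control. In sums of this kind, fewer cells with a gene and less RNA per cell cannot be told apart.

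Over all kept cells the 3 ligand genes were higher in DPCP skin and the 3 receptor genes lower. Vegfa (mm10 chromosome 17, 46016993 to 46032369, minus strand) stood at 38.6 CPM in DPCP cells and 2.18 CPM in control cells, a ratio of 17.7 (14.6 to 21.6). Pgf (chromosome 12, 85166635 to 85177790, minus strand) stood at 17.3 CPM in DPCP and 0.695 CPM in control, a ratio of 24.9 (17.9 to 35.8). Edn1 (chromosome 13, 42301476 to 42307990, plus strand) stood at 6.68 CPM in DPCP and 0.309 CPM in control, a ratio of 21.6 (13.1 to 38.3). These are sums over a changed mix of cells, which the next paragraphs take apart. Flt1 (chromosome 5, 147561604 to 147726011, minus strand) had 12 CPM in DPCP and 20.1 CPM in control, a ratio of 0.596 (0.540 to 0.659). For Nrp1 (chromosome 8, 128358604 to 128503363, plus strand) the levels were 59.6 CPM in DPCP and 117 CPM in control, a ratio of 0.512 (0.490 to 0.534). For Nrp2 (chromosome 1, 62703285 to 62818695, plus strand) they were 64.4 CPM in DPCP and 106 CPM in control, a ratio of 0.607 (0.581 to 0.634). Without the neutrophil-like class, which filled much of the DPCP sample and held little of either neuropilin, the log2 ratio was -0.28 for Nrp1 and -0.088 for Nrp2, against -0.97 and -0.72 with it. The ligand genes stayed high without that class, at log2 ratios of 3.98 for Vegfa, 5.33 for Pgf and 4.16 for Edn1. For Edn1 this rested on few cells. Cluster 19, which had no control cell, held 121 of those DPCP UMIs in 11 cells, 64 of them in 1 cell. Another 32 were in 2 epidermal gamma-delta T cell-like cells. The counting intervals take no account of UMIs that are clumped in single cells.

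**Figure D1:**
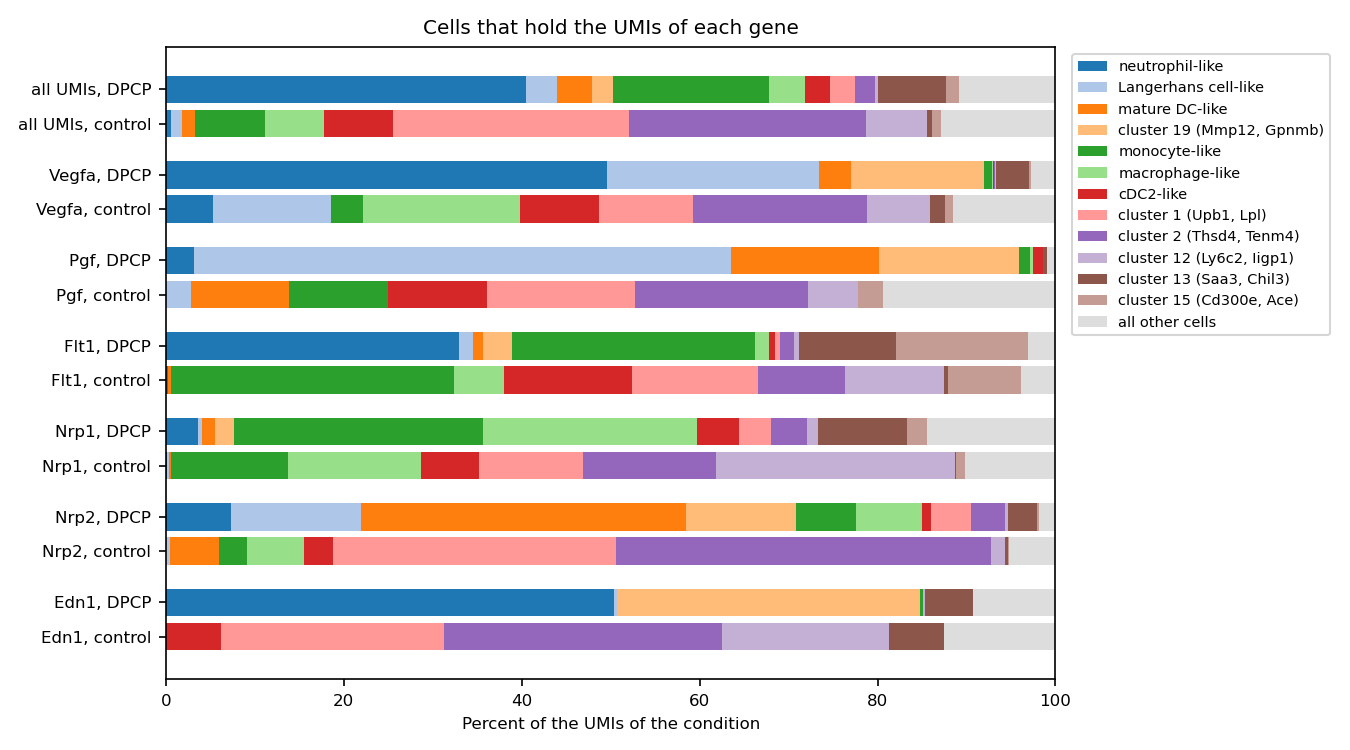
Share of the UMIs of each gene, and of all UMIs, that came from each cell class, for DPCP (upper bar of each pair) and control (lower bar); the x axis is the percent of that condition's UMIs. Neutrophil-like cells held 49.6% of DPCP Vegfa UMIs and Langerhans cell-like cells 60.3% of DPCP Pgf UMIs, while clusters 1 and 2 held most control Nrp2 UMIs.

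The promoters of the 3 ligand genes are shown because these genes were all higher in DPCP skin, in partly different cells. Each is 300 bases from RefSeq on GRCm38.p6, the mm10 assembly, running 5′ to 3′ on the gene's strand, from 250 bases before a transcript start. Capitals mark matches on either strand to ACGTG, the core of hypoxia-response elements, to TGANTCA, the AP-1 site, or to GGGCGG, the GC box bound by SP1 family proteins. Vegfa lies at chr17:46032328-46032627 (minus strand), Pgf at chr12:85177264-85177563 (minus strand) and Edn1 at chr13:42301226-42301525 (plus strand).
Vegfa: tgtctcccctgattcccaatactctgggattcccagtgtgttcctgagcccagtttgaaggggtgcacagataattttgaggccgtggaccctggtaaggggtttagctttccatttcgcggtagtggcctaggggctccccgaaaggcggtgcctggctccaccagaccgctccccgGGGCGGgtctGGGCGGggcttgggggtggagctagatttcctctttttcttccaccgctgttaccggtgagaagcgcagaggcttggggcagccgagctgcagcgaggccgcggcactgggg
Pgf: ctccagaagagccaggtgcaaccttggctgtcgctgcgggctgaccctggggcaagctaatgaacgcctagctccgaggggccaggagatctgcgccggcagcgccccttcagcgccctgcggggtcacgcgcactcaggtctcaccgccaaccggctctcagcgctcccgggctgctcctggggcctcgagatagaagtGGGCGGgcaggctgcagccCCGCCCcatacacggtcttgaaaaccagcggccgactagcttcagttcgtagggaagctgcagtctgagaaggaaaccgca
Edn1: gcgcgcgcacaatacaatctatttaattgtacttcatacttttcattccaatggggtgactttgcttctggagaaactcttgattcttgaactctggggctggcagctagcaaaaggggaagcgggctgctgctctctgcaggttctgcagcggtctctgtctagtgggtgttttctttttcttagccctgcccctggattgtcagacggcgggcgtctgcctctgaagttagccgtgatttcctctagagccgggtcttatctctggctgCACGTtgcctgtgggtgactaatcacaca
The Vegfa and Pgf windows hold 2 GC boxes each and neither other motif, and the Edn1 window holds 1 ACGTG on the reverse strand. Among 32851 promoter windows of this length, 35.7% hold a GC box, 19.6% an ACGTG and 7.81% a TGANTCA. These matches describe the letters in the windows.

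Vegfa was highest, among all groups with at least 50 cells, in DPCP Langerhans cell-like cells, the dendritic cells of the epidermis, and in DPCP cluster 19. In Langerhans cell-like cells it stood at 264 CPM (241 to 288; 488 UMIs in 76 of 124 cells) in DPCP, against 23.0 CPM (12.9 to 38.0; 15 UMIs in 3 of 56 cells) in control, a ratio of 11.4 (6.87 to 20.6). A single control cell held 12 of the 15 control UMIs, and without the top cell of each condition the log2 ratio was 5.73 in place of 3.52. At 1000 UMIs drawn from every cell, a Vegfa UMI was found in 22.6% (15.6 to 31.0) of the DPCP cells of this class, against 0 of 56 control cells. By the floor of 3 cells this allows up to 5.36% of control cells with a UMI at that depth. The matching DPCP share was 0 of 142 (up to 2.11%) in T and NK cell-like cells, taken as a background of free RNA.

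Pgf had 60.3% of its DPCP UMIs in the same class. There 555 UMIs in 75 of 124 DPCP cells gave 299.9 CPM (275 to 326), against 1 UMI in 56 control cells, or 1.54 CPM (0.0389 to 8.55). The ratio was 195 with a wide interval, 34.9 to 7729, because of that single control UMI. The thinned share was 20.2% (13.5 to 28.3) in DPCP and 0 of 56 cells (up to 5.36%) in control. Nrp2 was also higher there, with 269.7 CPM (247 to 294; 98 of 124 cells) in DPCP and 38.4 CPM (24.8 to 56.7; 10 of 56 cells) in control, a ratio of 7.03 (4.70 to 11). Nrp1 had 7.57 CPM in DPCP and 21.5 CPM in control, with 14 UMIs in each, a ratio of 0.352 (0.156 to 0.796). Flt1 had 10 UMIs in DPCP, 8 of them in 1 cell, and 1 UMI in control, and Edn1 had 1 UMI in DPCP and 0 in control.

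The ligand UMIs were spread over many Langerhans cell-like cells: 49 DPCP cells held 3 or more Vegfa UMIs and 50 held 3 or more Pgf UMIs, and the top 10 cells had 42.6% of the Vegfa and 46.3% of the Pgf UMIs. Vegfa and Pgf were found together in 55 cells when all UMIs were read, in 72.4% of cells with Vegfa and 41.7% of cells without it. With every cell at 1000 UMIs, Pgf was in 5 of 28 cells with Vegfa (17.9%) and in 20.8% of those without. Cells deeper in UMIs are likelier to show both genes, and the thinned counts are few. Cd207, the gene of langerin, had a UMI in 81.5% of DPCP and 96.4% of control Langerhans cell-like cells, at 505 and 620 CPM, and Epcam stood at 217 CPM in DPCP and 660 CPM in control. C1qa, a complement gene abundant in macrophages, stood at 1193 CPM in DPCP and 181 CPM in control. In cells with a Cd207 UMI (101 DPCP, 54 control) the log2 ratios were 3.49 for Vegfa, 7.72 for Pgf and 2.85 for Nrp2. Neutrophil RNA marked 14.5% of DPCP and 1.79% of control Langerhans cell-like cells, and without those cells the log2 ratios were 3.73 for Vegfa, 7.78 for Pgf and 3.0 for Nrp2. Of 8 endothelial markers, 6 were at 0 in these cells in both conditions.

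**Figure D2:**
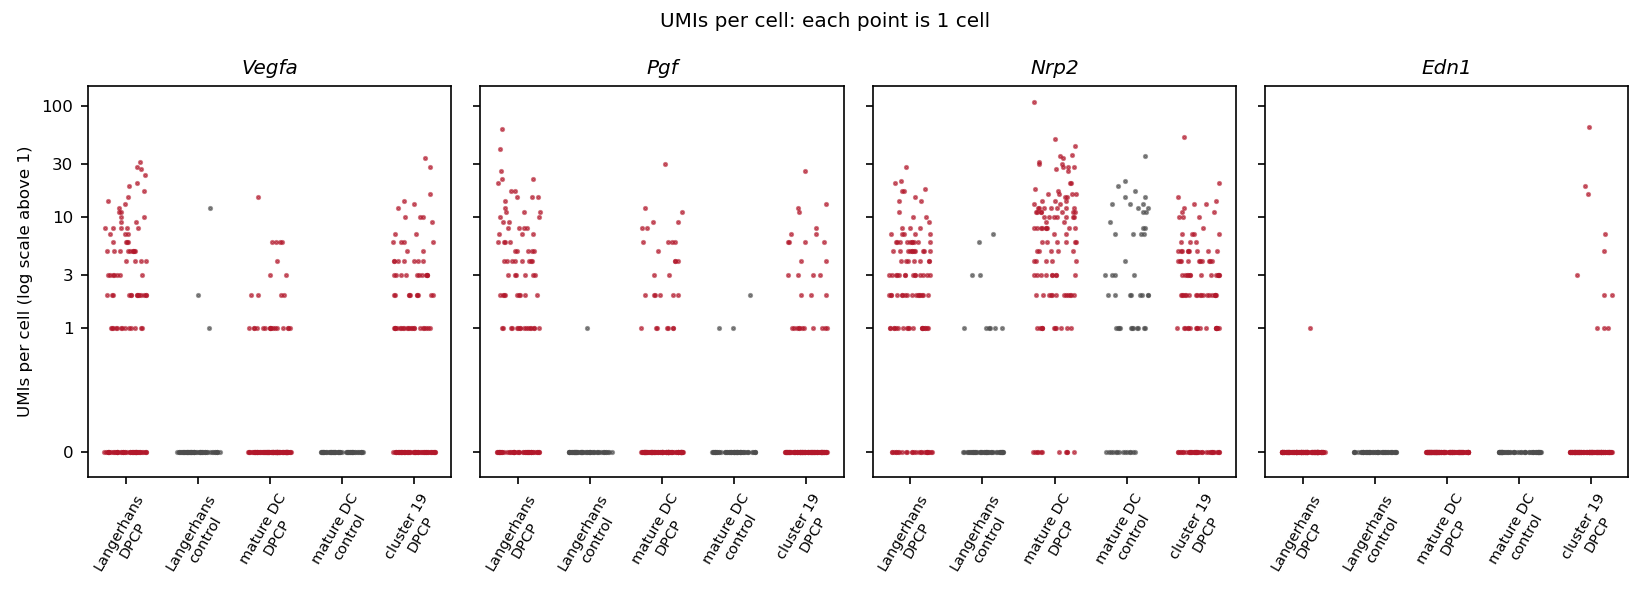
UMIs per cell (y axis, log scale above 1) of Vegfa, Pgf, Nrp2 and Edn1 in Langerhans cell-like cells, mature dendritic cell-like cells and cluster 19, with DPCP cells in red and control cells in grey; each point is 1 cell. Vegfa and Pgf were spread over many DPCP Langerhans cell-like cells, while Edn1 in cluster 19 came from 11 cells.

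Mature dendritic cell-like cells, marked by the migration genes Ccr7 and Fscn1, were the class richest in Nrp2 in both conditions. They also passed the marker rule for Langerhans cells, at 0.67 of that list beside 1.0 of their own. The Langerhans cell-like cluster was named at 0.667 of the same list. Whether the mature dendritic cell-like class holds Langerhans cells was not tested. Nrp2 stood at 609 CPM (575 to 643; 111 of 122 cells) in DPCP and 419 CPM (373 to 469; 44 of 58 cells) in control, a ratio of 1.45 (1.28 to 1.65). The thinned shares were 41.3% (32.4 to 50.6) in DPCP and 25.9% (15.3 to 39.0) in control, and these intervals overlap. Pgf had 74.5 CPM in DPCP (153 UMIs in 30 cells) and 5.53 CPM in control (4 UMIs in 3 cells), a ratio of 13.5 (5.16 to 50.1). Vegfa had 36.1 CPM in DPCP (74 UMIs in 29 cells) and 0 UMIs in control, at least 8.69-fold higher with the control set to 3 UMIs over the class. With at least 80% own tag this bound was 2.20 on the log2 scale, against 3.12 over all cells of the class. Neutrophil RNA was held by 19.7% of the DPCP cells and none of the control cells of this class, and without them the log2 ratio was 3.94 for Pgf and at least 3.22 for Vegfa. Flt1 had 7 UMIs in DPCP and 3 in control, Nrp1 stood at 23.4 CPM in DPCP and 20.7 CPM in control, and Edn1 had no UMI in either condition.

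Cluster 19 held 127 DPCP cells and no control cell, so it has no comparison. Its 10 leading genes were Cxcl5, Cav1, Mmp12, Gpnmb, Mmp13, Slc6a8, Arg1, Slc7a2, Pdpn and Met. It passed the marker rule for no class and is called by its number. Csf1r had a UMI in 81.9% and Ptprc in 93.7% of its cells. It held 244 CPM of Vegfa (218 to 273), which overlaps the level in DPCP Langerhans cell-like cells, with a UMI in 53.5% of cells. Pgf stood at 115 CPM (97.4 to 136), Nrp2 at 337 CPM (305 to 370), Nrp1 at 54.1 CPM and Flt1 at 16.7 CPM. Edn1 stood at 96.3 CPM, but 64 of its 121 UMIs were in 1 cell and the rest in 10 others. Kdr, the gene of the main signalling VEGF receptor, had 29 UMIs in 7 of these cells, out of 68 UMIs in all DPCP cells. The endothelial markers summed to 82.0 CPM in cluster 19 with Cdh5, Cldn5, Emcn and Egfl7 at 0, and neutrophil RNA marked 19.7% of its cells; their part in these levels was not tested.

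Neutrophil-like cells held 49.6% of all DPCP Vegfa UMIs while being 64.6% of DPCP cells and 40.5% of DPCP UMIs. Their Vegfa level was 47.2 CPM (44.3 to 50.2; 1016 UMIs in 621 of 4901 cells) in DPCP and 20.6 CPM (7.58 to 44.9; 6 UMIs in 6 of 107 cells) in control, a ratio of 2.29 (1.05 to 6.24). The DPCP clusters differed among themselves. Vegfa stood at 69.5 CPM (63.2 to 76.4) in cluster 0 and 69.1 CPM (61.3 to 77.6) in cluster 5, which do not differ beyond their intervals, then at 43.5 CPM in cluster 9, 20.5 CPM in cluster 3 and 12 CPM in cluster 6. Cluster 3 held 102 of the 107 control cells, and there Vegfa was 20.5 CPM (16.0 to 25.7) in DPCP and 21.9 CPM (8.04 to 47.7) in control, a ratio of 0.935 (0.409 to 2.63). Clusters 0, 5 and 9, where the DPCP levels were higher, held 1 control cell in all.

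Edn1 was also highest in cluster 0 among the neutrophil-like clusters, with 18.9 CPM (15.7 to 22.6) in cluster 0 (119 UMIs in 52 of 1838 cells), 8.24 CPM (5.71 to 11.5) in cluster 5 and 5.59 CPM (3.54 to 8.39) in cluster 9, whose intervals overlap. Clusters 3 and 6 held 2 and 1 Edn1 UMIs. The class held 179 Edn1 UMIs in 89 DPCP cells and 0 in 107 control cells, and at this control depth no difference was detectable, since 3 control UMIs would be a higher level than that of DPCP. Flt1 stood at 9.75 CPM in DPCP (210 UMIs in 123 cells) and 6.88 CPM in control (2 UMIs). Pgf had 29 UMIs in 27 DPCP cells and 0 in control. Nrp1 and Nrp2 were low, at 5.30 and 11.7 CPM in DPCP, against 17.2 and 10.3 CPM in control from 5 and 3 UMIs. Of the thinned neutrophil-like cells of cluster 0, Spp1, the gene of osteopontin, was in 58.5% of those with Vegfa and 56.1% of those without; in cluster 5 it was in 68.9% and 73.1%.

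**Figure D3:**
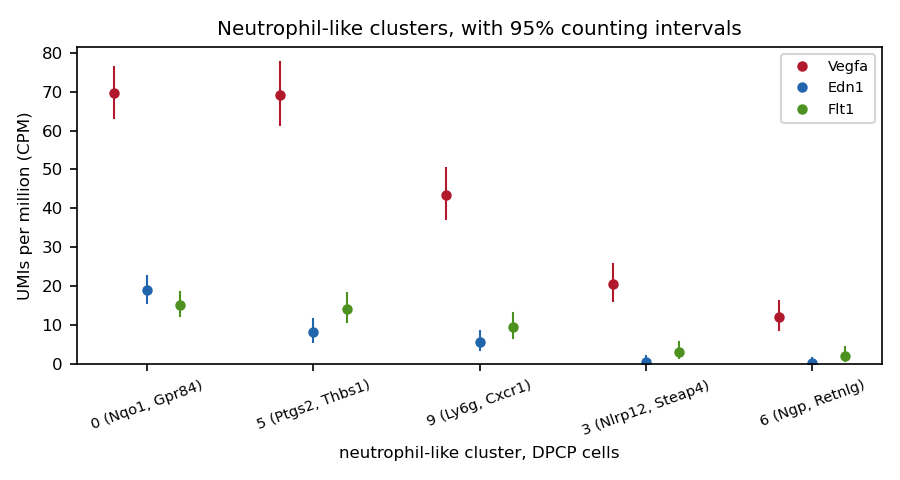
Levels (CPM) of Vegfa, Edn1 and Flt1 in the DPCP cells of the 5 neutrophil-like clusters, with 95% counting intervals; 2 leading genes of each cluster are given. Vegfa was near 69 CPM in clusters 0 and 5 and 20.5 and 12 CPM in clusters 3 and 6.

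Among the classes and unnamed clusters, Flt1 was highest in both conditions in cluster 15, whose leading genes include Cd300e, Ace and Fabp4. There it stood at 124 CPM (99.8 to 151; 30 of 107 cells) in DPCP and 160.2 CPM (128 to 198; 39 of 91 cells) in control, a ratio of 0.771 (0.569 to 1.05) whose interval includes 1. In monocyte-like cells Flt1 was 18.7 CPM (16.0 to 21.7; 75 of 787 cells) in DPCP and 80.2 CPM (71.8 to 89.4; 154 of 503 cells) in control, a ratio of 0.233 (0.193 to 0.281). The class joins 2 clusters of unequal makeup, with 760 DPCP and 160 control cells in cluster 4 and 27 DPCP and 343 control cells in cluster 11. Within cluster 4 the levels were 18.8 CPM in DPCP and 149 CPM in control, a ratio of 0.127 (0.102 to 0.157). Within cluster 11 they were 15 CPM from 4 UMIs in 1 DPCP cell and 52.2 CPM in control, a ratio of 0.287 (0.0773 to 0.751). With cells gated one by one on the same markers in place of clusters, the log2 ratio was -0.28, against -2.10 by cluster, so the size of this difference rests on which cells are called monocytes.

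Flt1 was also lower in DPCP in conventional dendritic cell type 2-like cells, with 2.68 CPM (4 of 120 cells) in DPCP and 37.3 CPM (43 of 413 cells) in control, a ratio of 0.0717 (0.0193 to 0.187). Of these control UMIs 54.7% were in 10 cells. In macrophage-like cells it had 4.62 CPM in DPCP and 17.3 CPM in control, a ratio of 0.268 (0.122 to 0.527). That log2 ratio of -1.90 was -0.37 with the per-cell gate, -0.66 with the larger set of variable genes and -0.93 with cluster 19 joined, so the 2-fold difference rests on which cells are called macrophages. In cluster 1, a large control cluster led by Upb1, Ear2 and Lpl, it had 2.66 CPM in DPCP and 10.7 CPM in control. The ratio was 0.249 (0.0669 to 0.650), with a DPCP level from 4 UMIs in 3 of 133 cells. Cluster 2, led by Thsd4 and Tenm4, gave 8.20 CPM in DPCP and 7.40 CPM in control, a ratio of 1.11 (0.516 to 2.12). The gamma-delta T class of the epidermis gave 3.33 CPM in DPCP and 9.0 CPM in control, where 12 of 19 UMIs were in 1 cell.

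Nrp1 was highest, among the classes compared, in macrophage-like cells, which carried the complement genes C1qa and C1qb. It stood at 352 CPM (327 to 378; 152 of 192 cells) in DPCP and 264 CPM (247 to 281; 237 of 333 cells) in control, a ratio of 1.33 (1.21 to 1.47). This direction did not hold when cells were gated one by one (log2 ratio -0.70) or when cluster 19 was joined to the class (-0.12), against 0.42 as clustered. In control, cluster 12, led by Ccl12, Ly6c2 and interferon-induced genes such as Ifit2 and with 13 DPCP and 355 control cells, held 449.5 CPM (428 to 472) and 26.8% of all control Nrp1 UMIs. Monocyte-like cells had 95.3 CPM (89.1 to 102) in DPCP and 193 CPM (180 to 207) in control, a ratio of 0.494 (0.448 to 0.544), with 0.461 (0.399 to 0.535) in cluster 4 and 0.988 (0.725 to 1.32) in cluster 11. Under the per-cell gate the monocyte log2 ratio was 0.0043, against -1.02 by cluster. Cluster 1 had 75.9 CPM in DPCP and 51.7 CPM in control (1.47, 1.19 to 1.79), and cluster 2 had 103 CPM in DPCP and 65.4 CPM in control (1.58, 1.30 to 1.91). Conventional dendritic cell type 2-like cells (1.03, 0.851 to 1.25) and T and NK cell-like cells (0.988, 0.788 to 1.24) had ratios whose intervals include 1, as did cluster 15 (0.780, 0.551 to 1.11). The gamma-delta T class was lower (0.727, 0.576 to 0.917), but its log2 ratio of -0.46 was -0.091 without cells that hold neutrophil RNA.

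Nrp2 had its main control sources in clusters 2 and 1, which held 42.1% and 31.8% of the control Nrp2 UMIs. Its level there was 109 CPM in DPCP and 168 CPM in control in cluster 2 (ratio 0.649, 0.541 to 0.773), and 101 CPM in DPCP and 127 CPM in control in cluster 1 (0.790, 0.664 to 0.933). In DPCP, mature dendritic cell-like cells held 36.5% of Nrp2 UMIs, Langerhans cell-like cells 14.6% and cluster 19 12.4%. T and NK cell-like cells had 5.81 CPM in DPCP and 36.8 CPM in control (0.158, 0.0717 to 0.312), with 13 of the 56 control UMIs in 1 cell. The gamma-delta T class had 17.8 CPM in DPCP and 38.4 CPM in control (0.463, 0.317 to 0.670), a log2 ratio of -1.11 that was -0.39 among cells with at least 80% own tag. Conventional dendritic cell type 2-like cells had 24.1 CPM in DPCP and 45.8 CPM in control (0.526, 0.357 to 0.756), a log2 ratio of -0.93 that was -0.35 at cluster resolution 2. Macrophage-like cells, at 117 CPM in DPCP and 103 CPM in control, had an interval that includes 1 (0.963 to 1.34). Their log2 ratio of 0.18 ranged from -0.29 with the larger set of variable genes to 1.0 at cluster resolution 0.5, so no direction is given for Nrp2 in this class. In monocyte-like cells the level was 25.1 CPM in DPCP and 40.5 CPM in control (0.619, 0.505 to 0.760), but neither cluster of the class was lower. The ratio was 1.12 (0.737 to 1.77) in cluster 4 and 1.70 (1.03 to 2.68) in cluster 11, which held 343 of the 503 control cells and 27 of the 787 DPCP cells of the class.

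The remaining classes held few ligand UMIs. In the gamma-delta T class, the resident T cells of mouse epidermis, Vegfa stood at 16.7 CPM in DPCP (45 UMIs in 23 cells) and 0.947 CPM in control (2 UMIs), a ratio of 17.6 (4.60 to 149.7). Neutrophil RNA marked 28.4% of those DPCP cells and 0 of the control cells, and without the marked cells the Vegfa log2 ratio was 3.50, against 4.14 with them. Edn1 there had 32 UMIs in 2 DPCP cells and 2 UMIs in 2 control cells. Macrophage-like cells had 4 Vegfa UMIs in DPCP and 20 in control, 15 of them in 1 cell (log2 ratio -1.66, and -0.077 without the top cell of each condition), and the direction turned when cluster 19 was joined to the class (log2 ratio 3.96) or with the per-cell gate (4.96). Monocyte-like cells held 17 Vegfa UMIs in DPCP and 4 in control. Conventional dendritic cell type 2-like cells had 10 Pgf UMIs in DPCP, 5 of them in 1 cell, and 4 in control (log2 ratio 2.75, and 0.86 at cluster resolution 2), and 1 Vegfa UMI in DPCP and 10 in control. Cluster 13, led by Ace, Saa3 and Chil3 and with neutrophil RNA in 95.2% of DPCP and 81.8% of control cells, had 18.8 CPM of Vegfa in DPCP and 7.91 CPM in control from 2 UMIs. In clusters 1, 2 and 15 no group passed 3.94 CPM of Vegfa, and Pgf and Edn1 had no DPCP UMI.

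**Figure D4:**
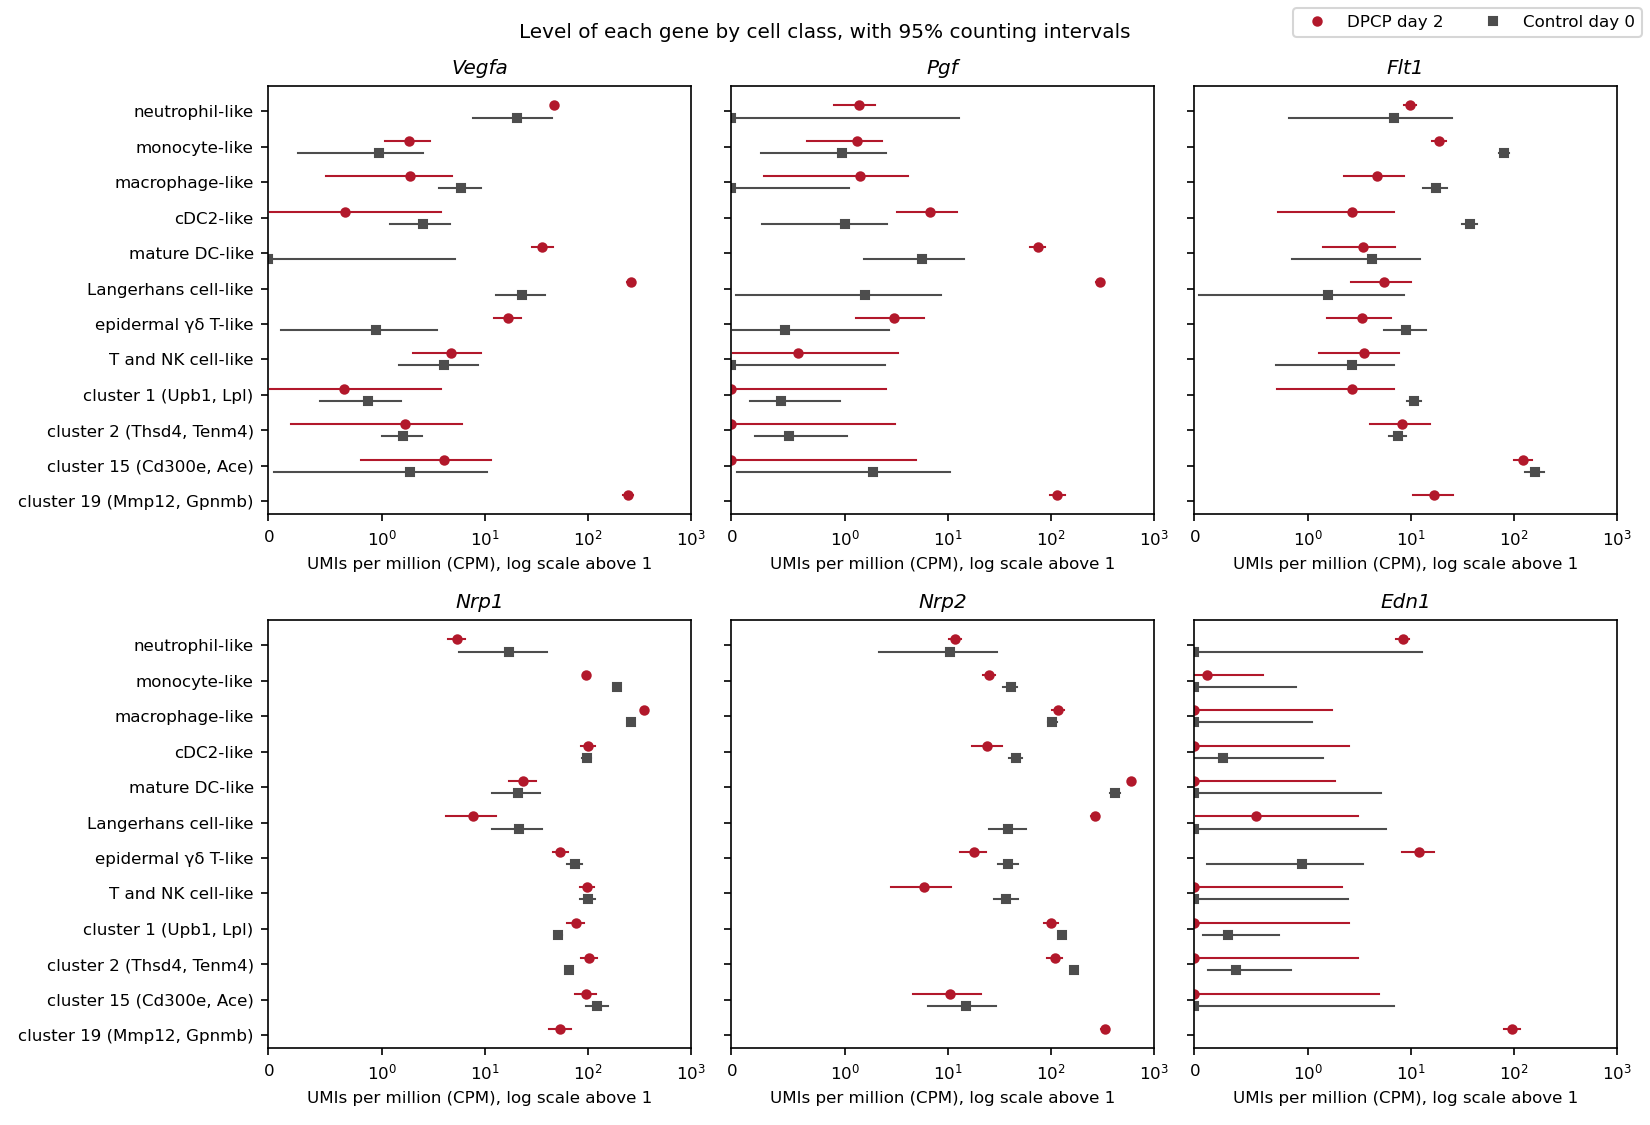
Level of each gene in CPM (x axis, log scale above 1 and linear below) by cell class, with DPCP as red circles above control as grey squares and 95% counting intervals as lines; cluster 19 had no control cells. Vegfa and Pgf peaked in DPCP Langerhans cell-like cells and cluster 19, and, among the groups plotted, Nrp2 was highest in mature dendritic cell-like cells, Nrp1 in macrophage-like cells and Flt1 in cluster 15.

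Other genes of the pathway were read by counting those with at least 50 summed UMIs in a class and a level at least 2-fold higher or lower in DPCP, beside the same share over all such genes. In Langerhans cell-like cells 12.4% of all genes were higher and 8.84% lower. The 3 members with enough UMIs there (Vegfa, Pgf, Nrp2) were higher and made up all tested genes of the VEGF list. All 3 had enough UMIs only through DPCP cells, where they are high, so their count is no support for a difference. Of 14 hypoxia-response genes 2 were higher and none lower, with a median log2 ratio of 0.44 beside 0.10 over all genes. Thbs1, which encodes thrombospondin-1, an inhibitor of vessel growth, stood at 106 CPM in DPCP and 10.7 CPM in control (ratio 9.85), from 196 and 7 UMIs. DPCP T and NK cell-like cells had 424 CPM of Thbs1, from 730 UMIs in 45 of 143 cells, up to 98 in 1 cell. Neutrophil RNA marked 23.1% of those cells, so this level is not an even background of free RNA. In Langerhans cell-like cells Thbs1 had enough UMIs only through DPCP cells, where it is high. Mmp9, a matrix protease gene, was lower, at 120 CPM in DPCP and 362 CPM in control (0.331), as was the semaphorin gene Sema6d (0.488), while 2 of 10 semaphorin and plexin genes were higher and 1 lower. In mature dendritic cell-like cells 10.4% of all genes were higher and 3.86% lower; of 4 members tested, Vegfa and Pgf were higher and none lower, and both had enough UMIs only through DPCP cells. There 4 of 13 hypoxia genes were higher and 1, Vhl, whose product marks hypoxia-inducible factors for breakdown, was lower (0.406, 0.310 to 0.533). Ptgs2, a prostaglandin synthase gene, was higher (10.3), at 57.0 CPM in DPCP and 5.53 CPM in control from 4 UMIs. It had enough UMIs only through DPCP cells. In DPCP T and NK cell-like cells Ptgs2 stood at 120 CPM, from 206 UMIs in 22 cells, 56 of them in 1 cell. That level is not an even background of free RNA either. The part of free RNA in the Ptgs2 level of mature dendritic cell-like cells was not tested.

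In neutrophil-like cells 10.5% of all genes were higher and 20.9% lower, with a median log2 ratio of -0.30. Of 5 members tested, all with enough UMIs only through DPCP cells, Vegfa was higher and Nrp1 lower, a share near that background. The hypoxia list there had 6 of 16 genes higher, among them Ero1l (5.05, 2.16 to 15.6) and P4ha1 (3.82, 1.75 to 10.4), and 2 lower, the glycolysis genes Hk2 (0.408) and Pfkfb4 (0.468). Ero1l and P4ha1 had 5 and 6 control UMIs, so they had enough UMIs only through DPCP cells, where they are high. The class had 290639 control UMIs against 21528947 in DPCP, so others of the 6 higher genes may have passed in the same way. Their count is no support for a difference. Of the 107 control cells 102 were in cluster 3, so these class ratios also set different neutrophil-like clusters side by side. In monocyte-like cells 4.0% of all genes were higher and 5.18% lower, and of 3 members tested Flt1 and Nrp1 were lower. Of 8 semaphorin and plexin genes 4 were also lower, among them the neuropilin partner Plxna4 (0.0980) and Plxna1 (0.224). Plxna4 had 19 DPCP and 86 control UMIs and Plxna1 47 and 93. Both had enough UMIs only through control cells, where they are high, so they are no support for a difference. The class also joins 2 clusters of unequal makeup. In macrophage-like cells, with 3.0% of all genes higher and 3.57% lower, Flt1 was the 1 lower of 3 members tested. Of 15 hypoxia genes 3 were higher, led by the glucose transporter gene Slc2a1 (4.60), a count that ranged from 0 to 9 over other settings. Plxna4 was lower (0.255). Slc2a1 had enough UMIs only through DPCP cells and Plxna4 only through control cells, in each case where the gene is high. In conventional dendritic cell type 2-like cells, with 3.73% higher and 4.70% lower, Flt1 was again the 1 lower of 3 members and 0 of 15 hypoxia genes passed the fold in either direction. In both of these classes Flt1 had enough UMIs only through control cells, where it is high. Of the list genes Thbs1 had the highest ratio over all kept cells, at 972 CPM in DPCP and 20.2 CPM in control. It stood at 1908 CPM in DPCP neutrophil-like cells, and the part of neutrophil RNA in its level in the other classes was not tested.

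Of the other VEGF and endothelin genes, the VEGF ligands Vegfb and Vegfc and the receptors Flt4 and Ednra were low, while Ednrb and Ece1 had more UMIs. Over all kept cells Vegfb stood at 2.45 CPM in DPCP and 2.82 CPM in control and Vegfc at 3.95 CPM in DPCP and 3.44 CPM in control, with ratio intervals that include 1. Cluster 15 held 80 of the 210 DPCP and 51 of the 178 control Vegfc UMIs. Flt4, a receptor of VEGF-C, had 1 UMI in DPCP and 3 in control. Of the endothelin receptors, Ednra had 7 UMIs in DPCP and 1 in control, while Ednrb stood at 14.3 CPM in DPCP and 19.3 CPM in control (0.742, 0.674 to 0.816). Ece1, whose enzyme cuts endothelin precursors, stood at 25.2 CPM in DPCP and 40.0 CPM in control (0.631, 0.589 to 0.676). The Ednrb and Ece1 ratios are sums over a changed mix of cells and are not given by class. Neutrophil-like cells were 64.6% of DPCP and 2.15% of control cells.

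Across 28 class and condition groups of at least 50 cells, the genes whose log2(CPM + 1) ran most alike, of 11817 searched, were Npepps (Pearson r = 0.866), Cxcl3 and Klf7 for Vegfa and Ppbp (0.890), Map4k4 and Kif1c for Pgf. They were Smpdl3b (0.823), Sat1 and Tm9sf4 for Flt1, Zcchc24 (0.911), Dmac1 and Txndc5 for Nrp1, Anxa4 (0.872), Adgrg6 and Sbf2 for Nrp2, and Nos2 (0.835), Fosl1 and Esd for Edn1. Among the members, Vegfa ran with Pgf (0.665) and Edn1 (0.607) and against Nrp1 (-0.579). The groups share 1 pooled run, differ in depth and hold few groups with high ligand levels, and the values are given as a description.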

How the data were processed

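The authors deposited UMI counts per gene and barcode, whole numbers without normalization, for 14146 barcodes. The matrix came from Cell Ranger 7.0.0, per the file headers. The submitters' processing notes name Cell Ranger 6.1.1, Seurat 4.0.1 and mm10. The deposited tag tables give each barcode suffix its condition. The members and lists were chosen with earlier results of these data known.

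Barcodes under 200 genes or over 10% mitochondrial UMIs were left out (scanpy 1.11.5, Python 3.11.15). Scrublet marked 3 control and 0 DPCP cells, too few to have worked, so doublets are in effect not removed. Clusters used 2000 variable genes without the members and list genes, 30 components, 15 neighbours and Leiden (leidenalg 0.10.2) at resolution 1. A name needed 3 markers with a UMI in 10% of cells and a level 2-fold above the rest. Clusters with another class's RNA or more of its markers among their leading genes stayed unnamed. Counts were summed per class and given as CPM with exact Poisson, conditional binomial and Clopper-Pearson intervals at 95%, a floor of 3 UMIs, and at least 50 cells per condition. PCR duplicates are collapsed by UMIs, and intervals cover counting error only. The intervals were tested on simulated independent Poisson counts, the model that they assume. This could not test them on UMIs clumped in single cells. Genes named beside the members are the 3 highest and 3 lowest list genes of a class, past 2-fold with an interval that excludes 1, and the 3 most alike genes; genes that identify classes and single genes of the VEGF and endothelin lists were chosen after their values were seen. Alternatives included edgeR 4.0.16 TMM scaling, other filters and cluster settings, and a per-cell marker gate. Leaving out top cells, the neutrophil-like class or cells without Cd207, and joining cluster 19, were alternatives chosen after seeing the data.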

Additional observations from a re-analysis of the deposited data

How the results depend on the processing

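Values are log2 ratios of DPCP over control, and the cause of each shift was not tested except where the setting itself removes cells. Of the results a comparison turns on, 154 values kept their direction within the counting interval, 35 moved beyond it and 2 reversed. Of the other values, which include single genes by class, 550 kept it, 114 moved and 7 reversed. Over all kept cells, averaging the CPM of single cells gave 3.63 for Vegfa, 3.67 for Pgf, -1.16 for Flt1, -1.79 for Nrp1 and -1.26 for Nrp2. Without the neutrophil-like class the values were 5.33 for Pgf, -0.58 for Flt1, -0.28 for Nrp1 and -0.088 for Nrp2. At least 80% own tag, which left 4728 DPCP cells, gave -0.51 for Flt1, -0.85 for Nrp1 and -0.60 for Nrp2. TMM scaling gave -0.87 for Nrp1 and -0.62 for Nrp2, and leaving ribosomal protein and mitochondrial genes out of the CPM gave -1.05 and -0.80. Nrp1 was -1.04 with the stricter cell filter and -1.04 without cells holding neutrophil RNA. In Langerhans cell-like cells, Vegfa was 5.73 without the top cell of each condition, and Nrp2 was 4.53 with the 5% highest doublet scores removed and 3.81 with the larger set of variable genes. In macrophage-like cells, Nrp1 was 0.62 with no doublet removal, 0.072 with the 5% highest doublet scores removed, 0.036 at resolution 0.5, 0.074 with the larger set of variable genes, 0.63 with members among the variable genes and 0.13 as a mean over cells. It reversed to -0.70 with the per-cell gate and -0.12 with cluster 19 joined. The macrophage-like cluster of highest Mmp12 level that was left out as planned is cluster 23, since cluster 19 stayed unnamed. In monocyte-like cells, Flt1 was -3.19 with the stricter filter, -2.84 with no filter, -2.79 with no doublet removal, -2.98 with the 5% removed, -2.77 at resolution 0.5, -2.90 with the larger set of variable genes, -2.75 with members among the variable genes and -0.28 with the per-cell gate. Of single values, Vegfa in macrophage-like cells reversed to 4.96 with the per-cell gate and 3.96 with cluster 19 joined, Nrp1 in the gamma-delta T class to 0.036 with the 5% removed, Nrp1 in monocyte-like cells to 0.0043 with the per-cell gate, and Nrp2 in monocyte-like cells to 0.024 with the stricter filter, 0.23 with the 5% removed and 0.52 with the larger set of variable genes. Counts of list genes moved as well. The number of hypoxia-response genes called higher ranged from 0 to 9 in macrophage-like cells and 1 to 6 in Langerhans cell-like cells. It ranged from 2 to 7 in mature dendritic cell-like, 6 to 9 in neutrophil-like and 2 to 5 in monocyte-like cells. No paired analysis was possible because each condition is 1 tagged sample. The 107 control neutrophil-like cells limit what can be said of low genes there.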
